A study of Capra hircus with 20 samples.

Results

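The genes for subunits of the oxidative phosphorylation complexes were examined in cultured goat fat precursor cells, by their mRNA levels in 20 libraries. Members were taken by gene symbol from the mRNA table: symbols that start with NDUFA, NDUFB, NDUFC, NDUFS or NDUFV followed by a number (complex I), SDHA to SDHD (complex II) and ATP5 (complex V, ATP synthase). The rule found 59 genes with 77 transcripts, of 20587 genes with 43766 transcripts in the table. Complex I had 38 members, complex II 4 and complex V 17. Complexes III and IV were not analysed here. The rule used no measured value, and all 59 members passed the filter for testing, a mean of at least 1 FPKM (fragments scaled for the length of the transcript and the mapped total of the library).

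The 20 libraries came from primary cells of male Jianzhou Daer goats (Capra hircus, 5 animals, 7 days old), with 5 libraries in each of 4 groups. Intramuscular preadipocytes (IMPA) were isolated from the longissimus dorsi muscle and subcutaneous preadipocytes (SPA) from subcutaneous fat, and both were used at passage 3 and collected at day 0 of induction. Intramuscular adipocytes (IMA) and subcutaneous adipocytes (SA) were the same kinds of cells after 3 days in medium with 10% fetal bovine serum and 50 µM oleic acid, a fatty acid that is used to induce lipid storage. No other treatment or genetic change was given for any group. No group was kept for 3 days without induction, so induction and 3 more days in culture cannot be told apart. Changes with induction below mean day 3 against day 0. The labels do not tie a library to an animal, so the p-values measure the spread between these libraries.

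Oxidative phosphorylation couples the oxidation of NADH and succinate in the inner mitochondrial membrane to the making of ATP. Complex I takes electrons from NADH through a flavin and a chain of iron-sulfur centres and pumps protons, complex II (succinate dehydrogenase) takes electrons from succinate and is also an enzyme of the citric acid cycle, and complex V lets protons flow back through its c-ring, which turns the central stalk inside the F1 head where ATP is made. Skeletal muscle fibres are rich in these complexes, white fat cells hold fewer, and most of the subunits are encoded in the nucleus.

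The labelled cell types were set against marker genes first. Of 13 skeletal muscle genes listed, 11 were in the table, and their summed level was 2674 to 3079 FPKM in IMPA and 9251 to 9879 FPKM in IMA, against 7.0 to 20.4 FPKM in SPA and 7.43 to 9.46 FPKM in SA. All 11 were higher in IMPA than in SPA and in IMA than in SA. The summed level of 9 adipocyte genes was 14.4 to 18.4 FPKM over all 20 libraries, and 4 of the 9 averaged at least 1 FPKM. Of those 4, at a limma adjusted p under 0.05, 1 was higher and 2 lower in IMA than in IMPA (19.9% and 40.2% of all genes). In SA against SPA 1 was higher and 1 lower (26.1% and 26%). In IMPA against SPA 2 were higher and 1 lower (42.3% and 32.9%), and in IMA against SA 2 and 2 (29% and 43.4%). PPARG, ADIPOQ, PLIN1 and LEP had a mean of at most 1.03 FPKM in each group. These defining markers of fat cells were thus near 0 before and after induction, and most of the sum lay in other genes of the list. The study itself reported lipid droplets by Oil Red O staining and lower Pref-1 mRNA after 3 days. The summed level of 8 proliferation genes was 114 to 143 FPKM in IMPA, 104 to 124 in IMA, 45.9 to 52.6 in SPA and 226 to 255 in SA. Stromal genes were high in every library (5436 to 8311 FPKM summed), and endothelial genes summed to at most 0.933 FPKM and immune genes to at most 18.2 FPKM. In the study's own alignment summary every IMPA library had a larger mapped share of reads than every IMA library, every SPA library than every SA library, and the intramuscular groups than the subcutaneous groups at each stage. Between the cell types, muscle marker level and mapped share were both higher in the intramuscular group at each stage, and the parts of the 3 cannot be told apart. With induction the muscle marker sum rose and the mapped share fell in intramuscular cells, and in subcutaneous cells the mapped share fell while the muscle marker sums overlapped, so mapped share and stage cannot be told apart. In such bulk RNA, fewer cells of a type and less RNA per cell cannot be told apart either. The mRNA FPKM sum was 373889 to 413880 and the number of genes above 0 was 15126 to 16961 per library. The table holds FPKM without read counts, so the number of reads behind each value is unknown.

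The members were among the more abundant mRNAs of these cells. Their median over the 20 libraries was 66.1 FPKM, against 9.58 FPKM for the 11432 genes tested, and together they made up 1.55% ± 0.048 of the mRNA FPKM sum in IMPA, 1.54% ± 0.025 in IMA, 1.19% ± 0.018 in SPA and 1.19% ± 0.025 in SA (SD, n = 5 libraries each). Every intramuscular library had a larger share than every subcutaneous library. The medians per complex were 55.4 FPKM for complex I, 72.3 FPKM for complex II and 132 FPKM for complex V. The highest member was ATP5A1, the alpha subunit of the F1 head, with a mean of 394 FPKM, and ATP5O of the peripheral stalk had 243 FPKM. In complex I the highest was NDUFA4 (186 FPKM), whose protein is known to sit at complex IV although its symbol names complex I, and the lowest was its paralogue NDUFA4L2 (19.4 FPKM). In complex II SDHD, a membrane anchor, was highest (87.9 FPKM) and SDHC, the other anchor, lowest (41.1 FPKM). The lowest of all was ATP5SL (9.92 FPKM), which together with ATP5S (13.9 FPKM) carries an ATP5 symbol without being a subunit of the enzyme. Replicates were close: the median coefficient of variation of the members was 4.86% in IMPA, 4.63% in IMA, 5.06% in SPA and 6.43% in SA, against 6.93%, 7.27%, 6.27% and 7.84% over all genes tested. NDUFA4L2 was the most variable member in IMPA (31.9%) and IMA (21.0%), ATP5G1 in SPA (18.4%) and NDUFA13 in SA (22.2%).

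**Figure D1:**
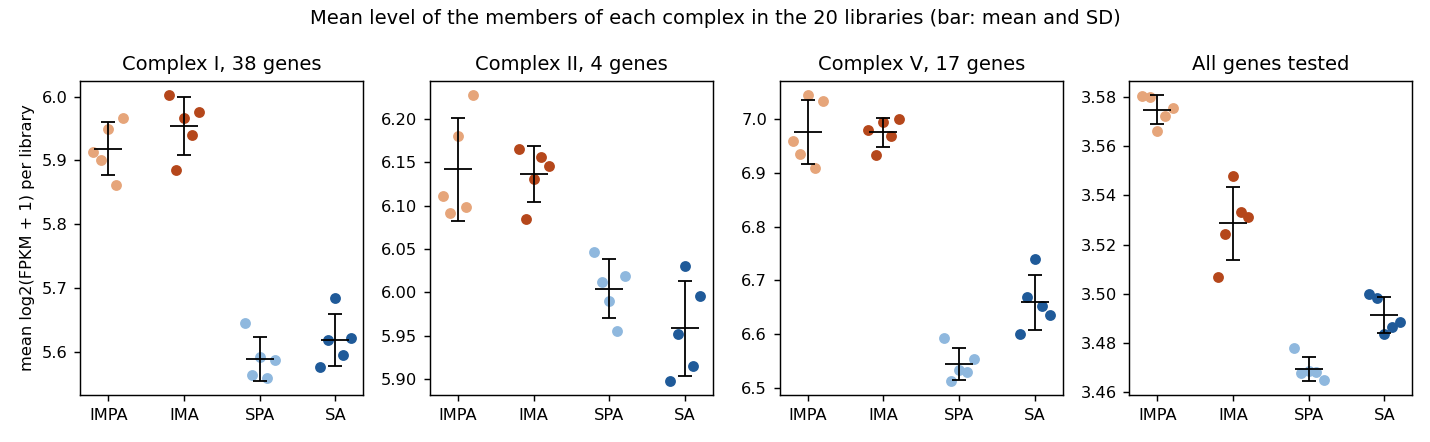
Mean log2(FPKM + 1) of the members of complexes I, II and V, and of all genes tested, in each of the 20 libraries. Points are libraries and bars are the mean and SD of 5 libraries. All intramuscular libraries lie above all subcutaneous libraries for the 3 complexes, and the y axes do not start at 0.

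The comparison of the cell types before induction asked how far muscle-derived and subcutaneous preadipocytes differ in the machinery of respiration. Of the 59 members, 47 were higher in IMPA than in SPA, 5 were lower and 7 did not pass an adjusted p of 0.05 (limma). Over all genes tested 75.1% passed, 42.3% as higher and 32.9% as lower, so 79.7% of members being higher stands against 42.3%. The median log2 difference of the members was 0.38, which is 1.3-fold, against 0.05 over all genes. By complex, 30 of 38 members of complex I, 3 of 4 of complex II and 14 of 17 of complex V were higher. For 42 members every IMPA library lay above every SPA library (35.9% of all genes), and for 4 every IMPA library lay below (27.5%), in all 46 without overlap against 63.4% of all genes. With the share of mapped reads as a covariate 3 of the 59 were called higher and 2 lower. Over all genes 11.5% were called higher there and 8.86% lower. The members' larger share of calls was not seen in that fit, while their median log2 difference was 0.12, against 0.02 over all genes. The covariate separates the groups, so its part and that of the cell type cannot be told apart.

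The largest positive difference before induction was in the c-ring of ATP synthase. ATP5G1, ATP5G2 and ATP5G3 encode one and the same mature c subunit with different import sequences. ATP5G1 was at 44.5, 40.8, 51.6, 43.8 and 51.2 FPKM in the 5 IMPA libraries and at 10.6, 13.7, 14.2, 16.4 and 17.5 FPKM in the 5 SPA libraries. Every IMPA library was above every SPA library, and the log2 difference was 1.62 ± 0.11, adjusted p = 3.7e-08 (3.08-fold). ATP5G3, the most abundant c-ring gene in IMPA, had 294 ± 21.7 FPKM in IMPA and 163 ± 8.15 FPKM in SPA (log2 difference 0.84 ± 0.05, adjusted p = 1.2e-08). ATP5G2 differed least of the 3, with 260.0 ± 15.2 and 212 ± 6.1 FPKM (log2 difference 0.29 ± 0.04, adjusted p = 4.2e-05).

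In the F1 head, ATP5B, the catalytic beta subunit, was at 341, 316, 373, 331 and 365 FPKM in IMPA and at 209.7, 196, 198, 193 and 193 FPKM in SPA (log2 difference 0.80 ± 0.05, adjusted p = 7.9e-09). The groups did not overlap, and the same held for ATP5A1, with 461 ± 18.9 FPKM in IMPA and 318 ± 14.6 FPKM in SPA (log2 difference 0.54 ± 0.04, adjusted p = 8.2e-08). The delta subunit gene ATP5D of the central stalk went the other way. It was at 47.8, 52.5, 52.1, 50.8 and 56.9 FPKM in IMPA and at 75.1, 65.02, 68.7, 68.8 and 68.1 FPKM in SPA, lower in every IMPA library (log2 difference -0.40 ± 0.05, adjusted p = 8.0e-06). All 4 members of the peripheral stalk, which holds the head still, were higher in IMPA, led by ATP5O (303 ± 14.1 against 176 ± 8.94 FPKM, log2 difference 0.79 ± 0.04, adjusted p = 3.8e-09). The 3 small membrane subunits were higher too, among them ATP5L (90.7 ± 4.9 against 58.3 ± 1.53 FPKM, log2 difference 0.63 ± 0.04, adjusted p = 1.6e-08). ATP5S was lower in IMPA (log2 difference -0.45 ± 0.05, adjusted p = 6.3e-06) and ATP5SL was not called (-0.01 ± 0.06).

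In complex I the members with the smallest p before induction were accessory subunits. NDUFB7 had 72.8 ± 1.77 FPKM in IMPA and 44.8 ± 1.66 FPKM in SPA (log2 difference 0.69 ± 0.03, adjusted p = 1.2e-09), and NDUFV3 had 29.3 ± 1.33 and 15.5 ± 0.825 FPKM (log2 difference 0.88 ± 0.04, adjusted p = 1.8e-09). Of the 11 NDUFB subunits, which lie in the membrane arm, 10 passed, all of them higher, with a median log2 difference of 0.41. That is 90.9% higher, against 42.3% of all genes. The 7 core subunits that carry the flavin and the iron-sulfur centres gave 5 that passed, all of them higher. That is 71.4%, where 75.1% of all genes passed and 42.3% were higher. Among them NDUFS1, the large iron-sulfur subunit, was at 40.1 ± 2.39 against 26.0 ± 1.43 FPKM (log2 difference 0.61 ± 0.05, limma adjusted p = 1.6e-07). Complex II differed little: SDHB, its iron-sulfur subunit, had a log2 difference of 0.34 ± 0.04, adjusted p = 3.3e-06, SDHA, its flavoprotein, one of 0.11 ± 0.04, adjusted p = 0.0133 with overlapping groups, and SDHC one of -0.01 ± 0.04 (95% interval -0.08 to 0.07).

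NDUFA4L2 was the member furthest below zero. It encodes a protein that is known to be induced by hypoxia through HIF1 and to lower complex I activity. It was at 7.62, 13.5, 7.29, 7.89 and 6.87 FPKM in IMPA and at 27.0, 25.8, 26.3, 28.3 and 30.4 FPKM in SPA, and the second IMPA library stood above the other 4 of its group. Every SPA library was above every IMPA library, by 3.04-fold on the log2(FPKM + 1) scale (log2 difference -1.60 ± 0.14, adjusted p = 3.3e-07). The second IMPA library also had the smallest mapped share of its group, and the part of mapping in this difference was not tested beyond the covariate fit, in which the difference was 0.21 (adjusted p = 0.722). Its paralogue NDUFA4 was higher in IMPA, at 195 ± 8.59 FPKM against 131 ± 3.27 FPKM (log2 difference 0.56 ± 0.04, adjusted p = 1.7e-08).

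After induction IMA was higher than SA for 47 members and lower for 4, and 8 were not called. Over all genes 72.4% passed, 29% as higher and 43.4% as lower, and the median log2 difference was 0.31 over the members and -0.09 over all genes. The higher members were 30 in complex I, 3 in complex II and 14 in complex V. For 36 members every IMA library lay above every SA library (24% of all genes) and for 3 below (34.7%), 39 in all against 58.6%. With the mapped share as a covariate 25 members were called higher and 2 lower, against 20.3% and 32.3% of all genes. In the day 0 and day 3 comparisons 41 members were higher in intramuscular cells at both stages. These comparisons share no library, but the study names 5 goats in all, so they may share animals. Over all genes 42.3% were higher at day 0 and 29% at day 3, and the share higher at both was not counted. ATP5D was lower at both (52.4 FPKM in IMA and 57.8 FPKM in SA, log2 difference -0.14 ± 0.04, limma adjusted p = 0.00639).

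The members with the smallest p after induction were NDUFV3, NDUFA4, ATP5J, NDUFA5, ATP5O and NDUFS1. NDUFV3 was at 40.6, 35.9, 35.1, 33.5 and 38.2 FPKM in IMA and at 15.3, 14.5, 15.2, 15.2 and 14.7 FPKM in SA. No other member differed as much on the log2 scale (1.24 ± 0.05, adjusted p = 2.4e-11, 2.36-fold). NDUFA4 was at 275, 275, 269, 291 and 282 FPKM in IMA and at 128, 145, 151, 140.1 and 136 FPKM in SA (log2 difference 0.99 ± 0.05, adjusted p = 1.3e-10). The accessory subunit NDUFA5 had 29.5 ± 1.19 and 18.6 ± 0.752 FPKM (log2 difference 0.63 ± 0.04, adjusted p = 8.5e-09), ATP5O 302 ± 4.77 and 189.5 ± 13.1 FPKM (0.67 ± 0.05, adjusted p = 9.8e-09), and ATP5J, coupling factor 6 of the peripheral stalk, 154 ± 2.52 and 108 ± 3.17 FPKM (0.51 ± 0.03, adjusted p = 8.0e-09).

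The cell types changed places between the stages for 4 members, each called at both. The share of all genes that did so was not counted. The core subunits NDUFS8 and NDUFV1 were higher in IMPA than in SPA and lower in IMA than in SA. ATP5S and NDUFA4L2 went from lower to higher. The later difference of ATP5S was small (log2 0.13 ± 0.06, adjusted p = 0.0479) and lost its call without any 1 of the IMA libraries 1, 3, 4 and 5 or the SA libraries 1, 2 and 5 (0.10 to 0.14, adjusted p up to 0.13). NDUFS8 carries iron-sulfur centres near the quinone site and NDUFV1 binds NADH and the flavin. NDUFS8 was at 50.5, 49.6, 50.7, 49.2 and 52.1 FPKM in IMPA, 38.5, 28.2, 35.7, 36.8 and 35.0 in IMA, 40.5, 34.4, 35.8, 39.1 and 35.6 in SPA and 45.4, 44.1, 41.5, 44.0 and 44.9 in SA. Every IMA library was below every IMPA library and every SA library above every SPA library. NDUFV1 was at 47.4, 47.1, 49.2, 49.1 and 48.8 FPKM in IMPA, 38.5, 29.6, 36.7, 35.8 and 36.5 in IMA, 44.3, 41.3, 41.2, 42.4 and 42.1 in SPA and 39.7, 44.6, 43.5, 43.8 and 43.7 in SA. For NDUFV1 every IMA library lay below every library of the other 3 groups. The differences after induction were -0.33 ± 0.07, adjusted p = 5.6e-04 for NDUFS8 and -0.28 ± 0.06, adjusted p = 0.00121 for NDUFV1 on the log2 scale.

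**Figure D2:**
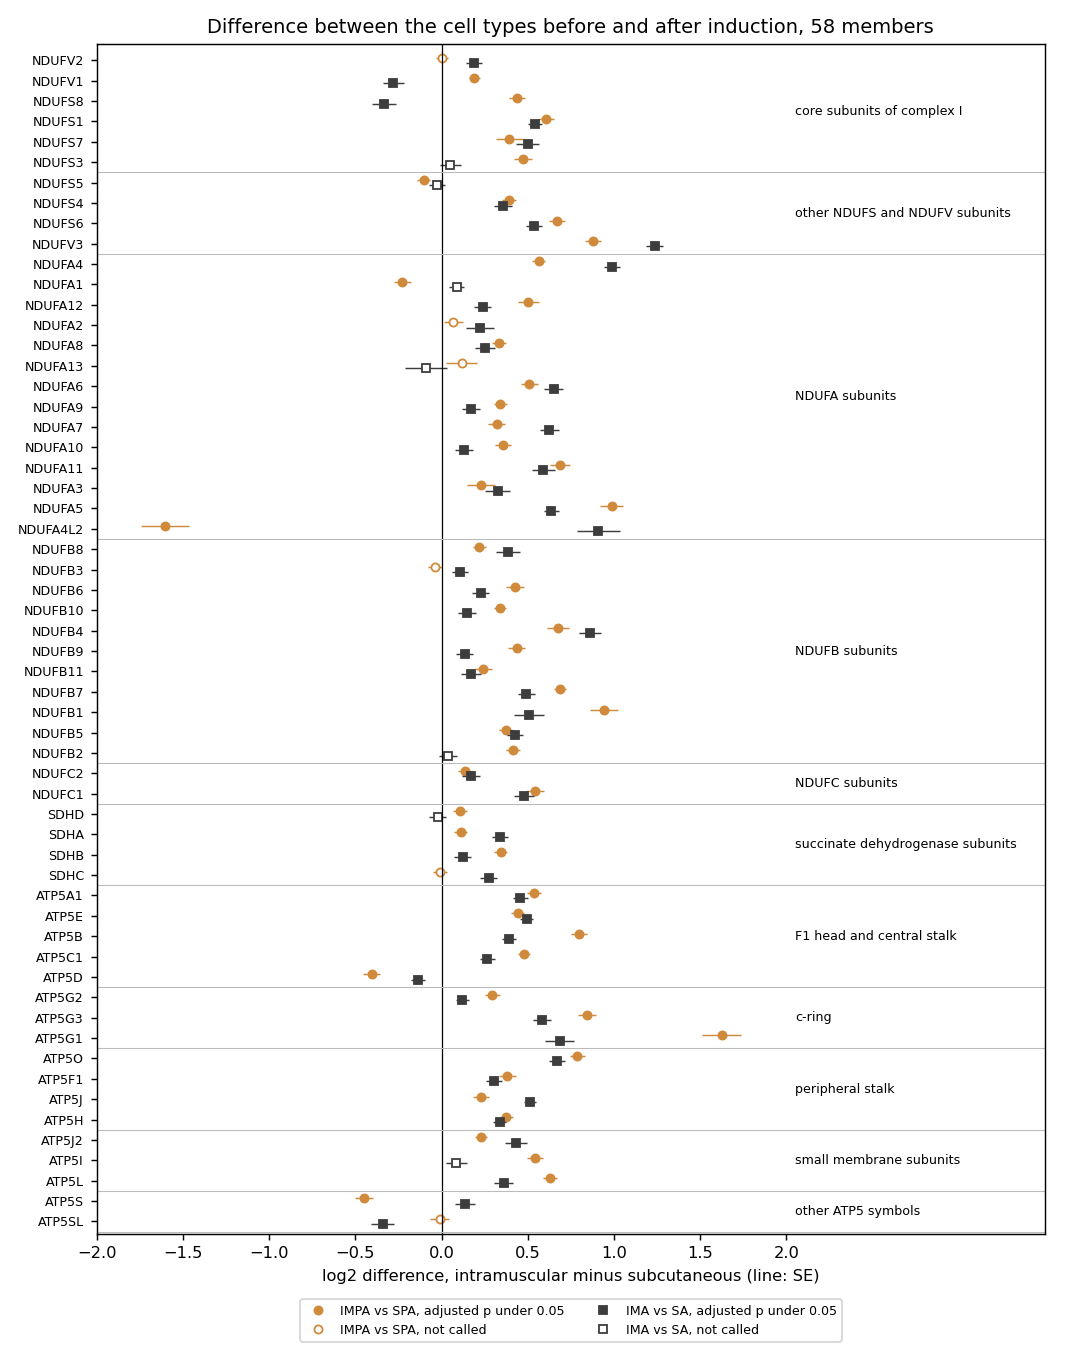
Log2 difference between intramuscular and subcutaneous cells for 58 members, before induction (IMPA minus SPA, circles) and after it (IMA minus SA, squares), ordered by role. Lines are standard errors and filled marks passed an adjusted p of 0.05. Most marks lie to the right of zero at both stages, and NDUFA4L2 crosses from -1.60 to 0.91.

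Induction of the intramuscular cells, IMA against IMPA, moved members in both directions. It raised 17 members, lowered 14 and left 28 not called. Over all genes tested 60.1% passed, 19.9% as higher and 40.2% as lower, and the median log2 difference was 0.00 over the members and -0.09 over all genes. Groups did not overlap for 14 members that were higher (14.3% of all genes) and for 10 that were lower (29.2%), 24 in all against 43.5%. Complex I had 11 higher and 9 lower, complex II 1 and 0, and complex V 5 and 5. Dividing by the mRNA FPKM sum gave 15 members higher and 19 lower, with 17.3% and 44.9% of all genes, and with the mapped share as a covariate 8 were called, all of them higher, against 4.14% higher and 2.26% lower over all genes.

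The largest rise was that of NDUFA4L2, which was at 28.1, 32.5, 17.6, 30.1 and 29.1 FPKM in the 5 IMA libraries against 6.87 to 13.5 FPKM in IMPA. The groups did not overlap, and the log2 difference was 1.57 ± 0.18, adjusted p = 2.0e-05. Leaving out each library in turn gave 1.51 to 1.73, whereas with the mapped share as a covariate the difference was -0.39 (adjusted p = 0.509). NDUFA4 rose from 195 ± 8.59 to 278 ± 8.45 FPKM (log2 difference 0.51 ± 0.04, adjusted p = 5.0e-07) and the accessory subunit NDUFA7 from 36.9 ± 1.74 to 51.7 ± 4.07 FPKM (0.47 ± 0.05, adjusted p = 1.7e-05). ATP5S rose from 10.8 ± 0.854 to 15.6 ± 0.621 FPKM (0.50 ± 0.05, adjusted p = 1.0e-05) and ATP5J from 124 ± 5.72 to 154 ± 2.52 FPKM (0.31 ± 0.04, adjusted p = 1.7e-05).

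Of the 7 core subunits of complex I, NDUFS8, NDUFV1 and NDUFS3 fell in IMA and NDUFV2 rose. NDUFS8 fell by 0.53 ± 0.07 on the log2 scale (adjusted p = 4.3e-05) and NDUFV1 by 0.44 ± 0.06 (adjusted p = 6.1e-05). Among accessory subunits NDUFA13 fell from 65.4 ± 0.745 to 49.8 ± 2.66 FPKM (log2 difference -0.39 ± 0.04, adjusted p = 5.2e-06). In complex V the c-ring gene ATP5G1 fell from 46.4 ± 4.79 FPKM to 31.5, 31.4, 32.8, 29.5 and 33.9 FPKM, with no overlap (log2 difference -0.53 ± 0.07, adjusted p = 3.3e-05), and ATP5B fell from 345 ± 23.8 to 293 ± 8.0 FPKM (-0.23 ± 0.05, adjusted p = 0.00104). ATP5A1, its partner in the F1 head, was at 461 ± 18.9 and 462 ± 8.17 FPKM (log2 difference 0.00 ± 0.03, 95% interval -0.06 to 0.07). The summed muscle markers rose between these groups as given above and their part in these changes was not tested.

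Induction of the subcutaneous cells, SA against SPA, raised 20 members and lowered 5, with 34 not called. Over all genes 52.1% passed, 26.1% as higher and 26% as lower, and the medians were 0.08 for the members and -0.01 for all genes on the log2 scale. Groups did not overlap for 14 higher members (19.8% of all genes) and 4 lower ones (19%), 18 in all against 38.8%. Dividing by the mRNA FPKM sum changed the split to 14 higher and 12 lower, and quantile normalization to 18 higher and 10 lower. All genes moved the same way, to 20.4% higher and 35.4% lower with the former and to 23.6% and 29.7% with the latter. With the former the median was 0.01 for the members and -0.07 for all genes. Complex V had 9 higher and 1 lower, complex I 10 and 2, and complex II 1 and 2.

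Of the 4 members with the smallest p, NDUFA4L2, SDHA and ATP5D fell and ATP5L rose. NDUFA4L2 was at 14.9, 12.6, 13.6, 14.3 and 14.2 FPKM in SA against 25.8 to 30.4 FPKM in SPA, and every SA library lay below every SPA library (log2 difference -0.94 ± 0.05, adjusted p = 2.7e-08). SDHA was at 77.3, 74.2, 74.1, 73.0 and 73.6 FPKM in SPA and at 60.3, 61.0, 64.2, 55.8 and 63.1 FPKM in SA, with no overlap (log2 difference -0.29 ± 0.04, adjusted p = 5.4e-05). ATP5D fell from 69.1 ± 3.66 to 57.8 ± 2.49 FPKM (-0.25 ± 0.04, adjusted p = 3.1e-04). SDHC fell as well (-0.15 ± 0.05, adjusted p = 0.0154). Among the members that rose, ATP5L, of the membrane part of complex V, and the accessory subunits NDUFA12 and NDUFA5 of complex I had the smallest p. ATP5L rose from 58.3 ± 1.53 to 70.2 ± 4.52 FPKM (log2 difference 0.26 ± 0.04, adjusted p = 3.1e-04), NDUFA12 from 59.2 ± 4.88 to 74.0 ± 3.01 FPKM (0.32 ± 0.05, adjusted p = 3.6e-04) and NDUFA5 from 15.0 ± 1.35 to 18.6 ± 0.752 FPKM (0.30 ± 0.06, adjusted p = 7.0e-04). The summed proliferation markers were also higher in SA than in SPA without overlap, and their part in these rises was not tested.

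The change with induction differed between the cell types for 35 members in the interaction term of a fit over all 20 libraries, with a more positive change in intramuscular cells for 13 and a more negative one for 22. Over all genes 55.3% passed, 20.7% as more positive and 34.6% as more negative. Upper-quartile scaling moved the split to 19 and 17 (24.7% and 29.3% of all genes) and quantile normalization to 19 and 21 (26.5% and 28.2% of all genes). With the mapped share as a covariate the split was 9 and 1, against 8.4% and 9.49% of all genes. The members' median log2 value was 0.14 in that fit and -0.08 in the main fit, against -0.05 and -0.08 over all genes. ATP5E, ATP5H, NDUFA7 and NDUFC1 rose in both cell types, ATP5H without a call in IMA when IMPA library 1 or 4 or IMA library 4 was left out (0.08 to 0.10, adjusted p up to 0.0636). No member was called lower in both by limma (2 at an unadjusted p under 0.05 in both), and 14 were called in neither. The shares of all genes with such joint patterns were not counted. NDUFA4L2 and SDHC rose in intramuscular and fell in subcutaneous cells, SDHC with groups that overlapped in both, and 5 did the reverse (ATP5B, ATP5G1, ATP5I, NDUFB2 and NDUFS8), all 7 with the interaction.

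NDUFA4L2 had the largest difference of changes (log2 2.51 ± 0.20, adjusted p = 1.1e-09): its mean level was lowest in IMPA, next in SA (13.9 ± 0.878 FPKM) and higher in IMA (27.5 ± 5.77 FPKM) and SPA (27.6 ± 1.85 FPKM). ATP5G1 followed with -0.94 ± 0.15, adjusted p = 2.0e-05, as it fell in intramuscular cells and was at 20.6, 16.5, 16.4, 22.1 and 22.2 FPKM in SA, where it overlapped SPA (log2 difference 0.41 ± 0.13, adjusted p = 0.0161). Without the first SPA and the fifth SA library that rise was 0.27 and not called (limma adjusted p = 0.0653). Those libraries lost fewer reads in filtering than the other subcutaneous ones. NDUFS8 (-0.77 ± 0.09, adjusted p = 1.7e-07), NDUFV1 (-0.47 ± 0.07, adjusted p = 1.3e-05) and ATP5B (-0.41 ± 0.06, adjusted p = 1.2e-05) also had more negative changes in intramuscular cells. ATP5S (0.58 ± 0.08, adjusted p = 2.2e-06) and NDUFA4 (0.43 ± 0.06, adjusted p = 2.7e-06) had more positive ones. Within complex II the subunits parted: SDHA (0.23 ± 0.06) and SDHC (0.28 ± 0.06) had more positive changes in intramuscular cells and SDHB (-0.22 ± 0.06) a more negative one, and SDHD was not called (-0.13 ± 0.06).

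**Figure D3:**
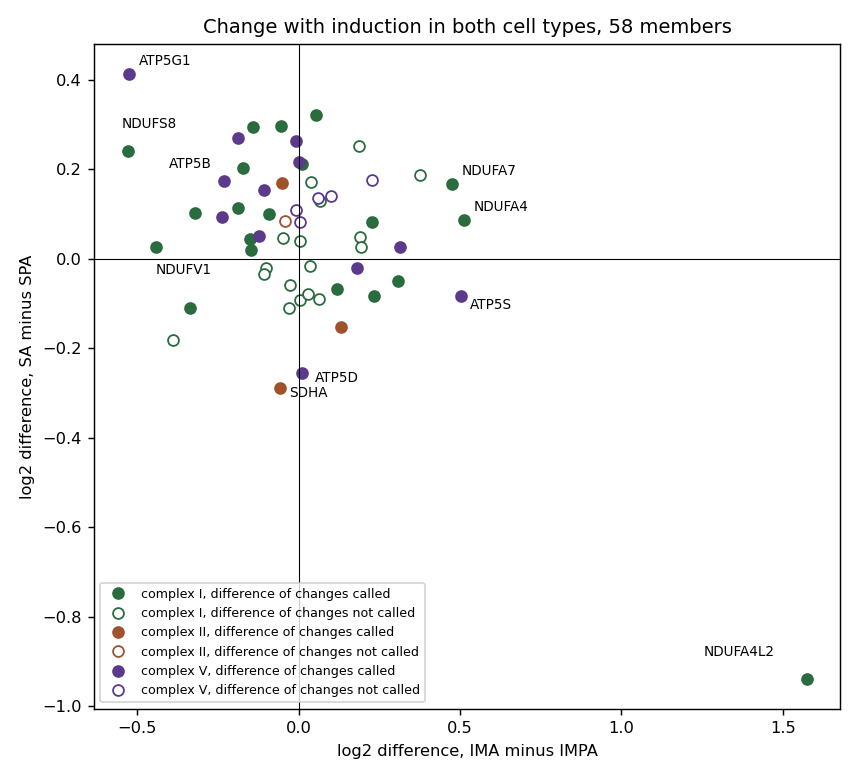
Log2 change with induction in intramuscular cells (IMA minus IMPA, x axis) against that in subcutaneous cells (SA minus SPA, y axis) for 58 members, coloured by complex. Filled points differed between the cell types at an adjusted p of 0.05. NDUFA4L2 lies alone at 1.57 and -0.94, and ATP5G1, NDUFS8 and ATP5B lie in the upper left quadrant.

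**Figure D4:**
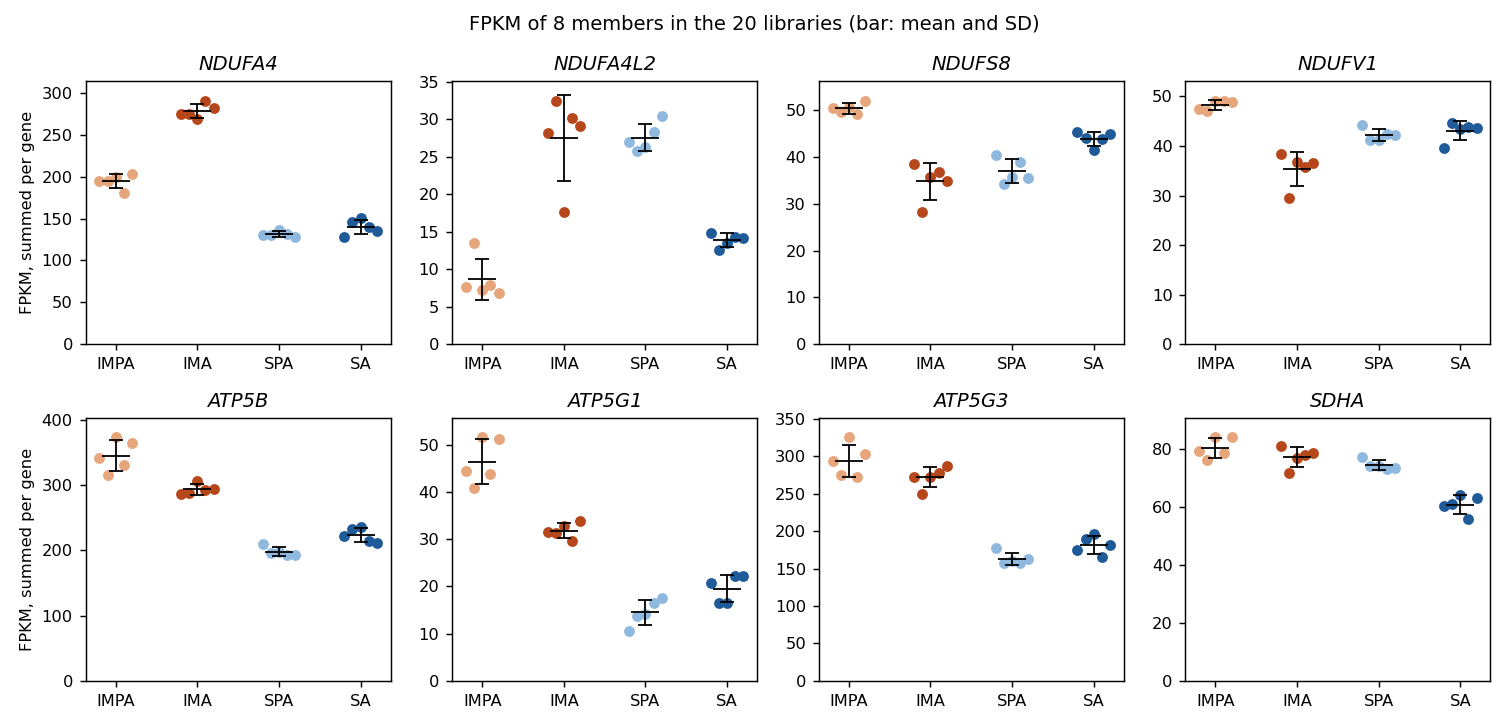
FPKM of 8 members in each of the 20 libraries, with the mean and SD of each group. NDUFA4 is highest in IMA, NDUFA4L2 has its lowest mean in IMPA, NDUFS8 and NDUFV1 are highest in IMPA, and SDHA is lowest in SA.

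Ratios between paralogues compare genes within one library. In FPKM, NDUFA4L2 was 0.0445 of NDUFA4 in IMPA, 0.0986 in IMA, 0.21 in SPA and 0.0999 in SA. The log2 ratio rose by 1.06 from IMPA to IMA (two-sided exact permutation test, p = 0.0159, adjusted p = 0.0272 over 12 tests) and fell by 1.03 from SPA to SA (exact permutation p = 0.00794, the smallest that 5 against 5 libraries allow, adjusted p = 0.0159). It was 2.17 lower in IMPA than in SPA (exact permutation p = 0.00794, adjusted p = 0.0159). Between IMA and SA it differed by -0.08 (exact permutation p = 0.69, adjusted p = 0.753), within the spread of the libraries. ATP5G1 was 0.158 of ATP5G3 in IMPA, 0.117 in IMA, 0.0896 in SPA and 0.109 in SA. Its log2 ratio fell by 0.42 with induction in intramuscular cells and was 0.78 higher in IMPA than in SPA (each exact permutation p = 0.00794, adjusted p = 0.0159), and the other pairings of groups did not pass. ATP5G2 was the most abundant c-ring gene of the subcutaneous groups (1.3 of ATP5G3 in SPA and 1.21 in SA) and lay below ATP5G3 in the intramuscular groups (0.888 and 0.879). The log2 ratio differed by -0.55 between IMPA and SPA and by -0.46 between IMA and SA (each exact permutation p = 0.00794, adjusted p = 0.0159).

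More than 1 annotated transcript was listed for 15 members, and for 2 of them the makeup of the transcripts differed between the cell types at both stages. NDUFV3, an accessory subunit whose gene is known to be spliced into a short and a long form, had the transcripts XM_005675642.3 and XM_018051739.1. The first made up 65.1, 60.7, 66.9, 64.0 and 68.0% of the gene's FPKM in the IMPA libraries, 76.9, 72.5, 70.5, 71.0 and 78.4% in IMA, 30.9, 32.0, 29.2, 27.7 and 30.8% in SPA and 24.2, 25.2, 29.7, 30.5 and 22.2% in SA. It was the major transcript in every intramuscular library and the minor one in every subcutaneous library. The level of XM_018051739.1 was 10.3 ± 0.498 FPKM in IMPA, 9.52 ± 0.778 in IMA, 10.8 ± 0.546 in SPA and 11 ± 0.471 in SA, whereas that of XM_005675642.3 was 19.1 ± 1.6, 27.1 ± 3.26, 4.68 ± 0.411 and 3.94 ± 0.587 FPKM. The higher level of NDUFV3 in the intramuscular groups thus lay in XM_005675642.3. ATP5C1, the gamma subunit of the central stalk, whose gene is known to be spliced differently in muscle, was chosen after its values were seen. Its transcript XM_018056966.1 made up 90.9, 90.6, 92.8, 91.2 and 92.3% in IMPA, 93.0, 92.1, 89.9, 94.2 and 93.0% in IMA, 71.3, 65.7, 64.5, 72.0 and 68.2% in SPA and 65.6, 66.0, 67.2, 72.1 and 66.8% in SA. The other transcript, XM_018056965.1, was at 10.5 ± 1.01 FPKM in IMPA, 9.46 ± 1.93 in IMA, 28.3 ± 2.85 in SPA and 33.8 ± 3.34 in SA. Intramuscular and subcutaneous libraries did not overlap in either gene. Which splice form each transcript encodes was not analysed here.

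In a limma fit over the 6352 genes with more than 1 transcript, run on the log2 ratio of the overall most abundant transcript to the rest and added after the shares were seen, the ratio in NDUFV3 (with XM_005675642.3 as that transcript) differed by 1.89 ± 0.14, adjusted p = 7.1e-06 between IMPA and SPA and by 2.70 ± 0.19, adjusted p = 4.3e-06 between IMA and SA. For ATP5C1 the differences were 2.24 ± 0.13, adjusted p = 1.6e-06 and 2.46 ± 0.16, adjusted p = 3.0e-06. Of the 15 members 3 passed between IMPA and SPA (15.7% of all such genes), 2 between IMA and SA (13.8%), 1 between IMA and IMPA (5.18%) and none between SA and SPA (2.41%, with 1 at an unadjusted p under 0.05). The third before induction was NDUFB8 (0.42 ± 0.05, adjusted p = 2.9e-04), whose minor transcript made up less than 1% in every library, and the one with induction was SDHD (0.84 ± 0.17, adjusted p = 0.0221), which lost its call without IMPA library 1, 3 or 4 (0.80 to 0.83, adjusted p up to 0.0571). Exact permutation tests of the shares gave p under 0.05 for 12 of 60 tests and the smallest possible value of 0.00794 for 8, which is an adjusted p of 0.0595, so none passed. The transcript split of ATP5J was not steady: its more abundant transcript made up 5.69% to 99.5% of the gene in IMPA and 9.26% to 100% in IMA, while the summed level of the gene varied by 4.62% and 1.64% there. No statement on ATP5J rests on a single transcript.

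**Figure D5:**
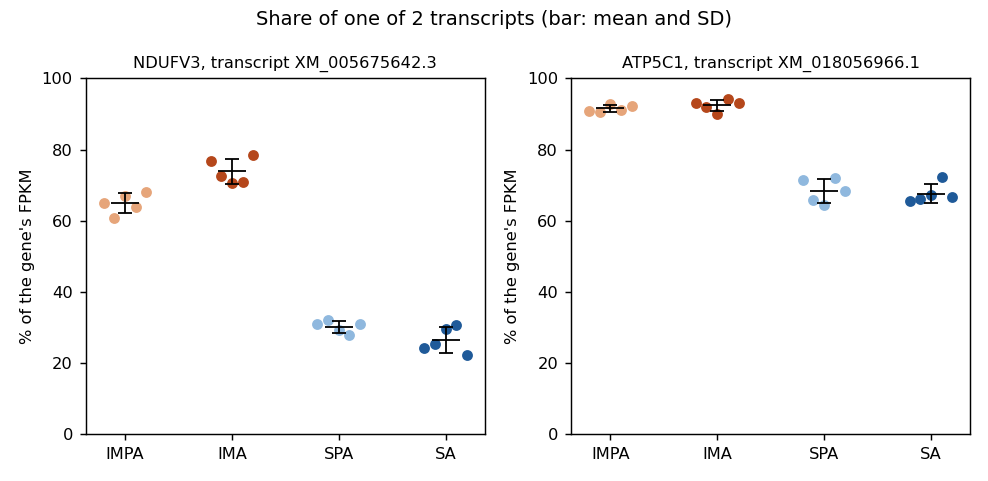
Share of the FPKM of NDUFV3 in transcript XM_005675642.3 and of ATP5C1 in transcript XM_018056966.1, in percent, in the 20 libraries, with the mean and SD of each group. The NDUFV3 transcript is at 60.7 to 78.4% in intramuscular and 22.2 to 32.0% in subcutaneous libraries, and the ATP5C1 transcript at 89.9 to 94.2% and 64.5 to 72.1%.

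Genes that work beside the complexes were described from the same fits. Of 18 enzymes of the citric acid cycle and pyruvate entry, 14 were higher and 2 lower in IMPA than in SPA, and 12 higher and 3 lower in IMA than in SA (median log2 difference 0.39 at both stages, against 0.05 and -0.09 over all genes). At day 0 that is 77.8% and 11.1%, against 42.3% and 32.9% of all genes. At day 3 it is 66.7% and 16.7%, against 29% and 43.4%. IDH3A, a subunit of the NAD-linked isocitrate dehydrogenase that supplies NADH, was at 89.5 ± 7.01 FPKM in IMPA, 145 ± 4.98 in IMA, 22.7 ± 0.651 in SPA and 23.6 ± 1.23 in SA, and rose with induction in the intramuscular cells (log2 difference 0.70 ± 0.05, adjusted p = 5.3e-07). Of 9 tested genes for carriers, electron transfer and uncoupling, 5 were higher (55.6%) and 2 lower (22.2%) in IMPA than in SPA. In IMA against SA 3 were higher and 3 lower (33.3% each). Of all genes 42.3% were higher and 32.9% lower in the former comparison, and 29% and 43.4% in the latter. The 2 ADP/ATP carriers that exchange the product of complex V moved apart. SLC25A4, known as the carrier of heart and muscle, was at 119 ± 11.8, 214 ± 10.0, 19.7 ± 0.962 and 21.4 ± 0.974 FPKM in IMPA, IMA, SPA and SA. SLC25A5, known as the carrier of dividing cells, was at 79.6 ± 4.33, 44.3 ± 4.58, 36.8 ± 3.53 and 72.2 ± 3.21 FPKM, so it fell in intramuscular cells (log2 difference -0.83 ± 0.06, adjusted p = 7.0e-07) and rose in subcutaneous cells (0.96 ± 0.06, adjusted p = 4.7e-08). UCP2, a carrier of the uncoupling protein family, rose from 0.889 ± 0.249 to 8.1 ± 1.45 FPKM in intramuscular cells (log2 difference 2.26 ± 0.12, adjusted p = 2.3e-08) and had a mean of 0.0236 FPKM in SPA and 0.0323 FPKM in SA. UCP1, the uncoupler of brown fat, had a mean of at most 0.0183 FPKM in each group.

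Of 14 tested regulators and enzymes of mitochondrial gene expression, 10 passed in IMA against IMPA and 5 in SA against SPA, all of them lower (median log2 difference -0.24 and -0.11, against -0.09 and -0.01 over all genes). That is 71.4% and 35.7% lower, against 40.2% and 26% of all genes. POLG, the mitochondrial DNA polymerase, fell from 16.8 ± 0.795 to 11.7 ± 0.546 FPKM (log2 difference -0.48 ± 0.04, adjusted p = 3.7e-06), and TFAM, which packs mitochondrial DNA, from 12.7 ± 0.42 to 10.8 ± 0.727 FPKM (-0.22 ± 0.05, adjusted p = 0.00204). NRF1, a transcription factor of respiratory genes, fell in both cell types (-0.20 ± 0.07, adjusted p = 0.0223 and -0.34 ± 0.06, adjusted p = 3.0e-04). Between the cell types 9 of the 14 were higher and 2 lower in IMPA than in SPA (64.3% and 14.3%, against 42.3% and 32.9% of all genes). In IMA against SA 4 were higher and 4 lower (28.6% each, against 29% and 43.4%), with a median log2 difference of 0.02. The coactivator PPARGC1B was higher in IMPA than in SPA (2.61 ± 0.385 against 0.501 ± 0.0656 FPKM, log2 difference 1.26 ± 0.07, limma adjusted p = 6.1e-09). The nuclear receptor ESRRA was higher in IMA than in SA (16.5 ± 0.902 against 10.6 ± 1.27 FPKM, 0.59 ± 0.07, limma adjusted p = 3.2e-06). PPARGC1A stayed under the filter, at 0.517 FPKM in IMPA and 0.0662 FPKM in SA.

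Of 25 assembly factors of the complexes, 1 was higher and 11 were lower in IMA than in IMPA, 5 were higher and 4 lower in SA than in SPA, 8 and 3 in IMPA against SPA, and 5 and 5 in IMA against SA. In IMA against IMPA 4% were higher and 44% lower, against 19.9% and 40.2% of all genes. Their median log2 difference there was -0.17, against -0.09 over all genes. For SA against SPA the shares were 20% and 16%, against 26.1% and 26%. For IMPA against SPA they were 32% and 12%, against 42.3% and 32.9%. For IMA against SA they were 20% each, against 29% and 43.4%. NDUFAF8, an assembly factor of complex I, fell in intramuscular cells from 42.6 ± 3.19 to 33.4 ± 3.55 FPKM and rose in subcutaneous cells from 18.9 ± 1.1 to 27.0 ± 2.66 FPKM (log2 differences -0.34 ± 0.07, adjusted p = 0.0013 and 0.49 ± 0.06, adjusted p = 4.3e-05). NDUFAF2, another one, was lower in IMPA than in SPA (-0.94 ± 0.08, adjusted p = 1.9e-07). Of 19 import genes 15 passed between IMPA and SPA, all of them higher in IMPA (78.9%, against 42.3% of all genes). In IMA against IMPA 5 were higher (26.3%) and 11 lower (57.9%), against 19.9% and 40.2% of all genes. There the channel TOMM40 fell (-0.75 ± 0.06, limma adjusted p = 1.9e-06). Of 77 mitochondrial ribosomal proteins 37 were higher and 13 lower in IMPA than in SPA, 7 and 30 in IMA against IMPA, 14 and 6 in SA against SPA, and 21 and 26 in IMA against SA. In IMPA against SPA 48.1% were higher and 16.9% lower, against 42.3% and 32.9% of all genes. In IMA against IMPA 9.09% were higher and 39.0% lower, against 19.9% and 40.2%. For SA against SPA the shares were 18.2% and 7.79%, against 26.1% and 26%. For IMA against SA they were 27.3% and 33.8%, against 29% and 43.4%.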

How the data were processed

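Strand-specific total RNA libraries were sequenced on an Illumina HiSeq. Per the labels and the study's methods, the authors filtered reads, aligned them with HISAT2 (version 2.0.4) to goat assembly ARS1, and computed FPKM per transcript with StringTie (version 1.3.1), Ballgown and Cuffdiff. The deposited table holds FPKM values, which fix each library to its own total, so a large change in a few abundant mRNAs shifts all others. The reads behind each value are unknown, so no counting interval can be given. A second deposited table with FPKM values of long non-coding RNAs was not used.

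FPKM values were summed per symbol, and the 11432 genes that averaged 1 FPKM or more across all 20 libraries were tested on log2(FPKM + 1) by limma (version 3.58.1, R 4.3.3) with a variance trend, each comparison on its own 10 libraries and the interaction on 20. P-values were adjusted by Benjamini-Hochberg over all genes tested, at a threshold of 0.05. Fold changes are on the log2(FPKM + 1) scale, which understates the change of low genes, and errors are SD for levels and SE for log2 differences. Paralogue ratios and transcript shares were tested by two-sided exact permutation tests (scipy 1.17.1) over 252 divisions of 10 libraries. Paralogue fragments can be split between near-identical genes, as for the c-ring genes. The fits were tested on simulated data before use.

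Named members were the 6 with the smallest p in each comparison, paralogue pairs, core subunits, the highest and lowest of each complex, and those whose main transcript differed between groups. Of the other lists at most 3 genes per list and comparison were named, and biogenesis regulators. The members and lists were chosen with earlier results of these data known. Alternatives were other filters, pseudocounts, scalings and fits, a replicate block, the share of mapped reads (from the study's alignment summary) as a covariate, and leaving out libraries. No library repeated another: at most 0.534% of the genes tested had identical values in 2 libraries of a group. Single values of 1 member and of 1 gene of the other lists are not reported here. Sequences and coordinates of the members were not analysed here.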

Additional observations from a re-analysis of the deposited data

Results flagged for a closer look

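In 8 of the 120 groups of 5 libraries examined, 1 library stood far from the other 4 by Dixon's gap test, where 6 are expected by chance at 1 in 20. These were ATP5G2 in the fourth IMPA library (233 FPKM, others 263 to 271) and in the fourth SPA library (201 FPKM, others 213 to 217) and ATP5SL in the fifth IMA library (9.52 FPKM, others 8.0 to 8.28). NDUFA4L2 in the second IMPA library was at 13.5 FPKM (others 6.87 to 7.89), and NDUFV1 in the first SA library at 39.7 FPKM (others 43.5 to 44.6). The first SPA library held 3 of the 8, with NDUFA13 at 44.8 FPKM (others 62.5 to 67.5), NDUFA5 at 17.3 FPKM (others 13.9 to 14.9) and SDHA at 77.3 FPKM (others 73.0 to 74.2). That library was one of the 2 subcutaneous libraries that lost fewer reads in the study's filtering than the other subcutaneous ones. All intramuscular libraries also lost fewer than those others, and the part of this in the cell type differences was not tested.

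The change with induction differed between the cell types, by the interaction term of limma, for 21 of 26 members named, some of which were chosen for a small p in that term. Over all 59 members it was 35, and over all genes 55.3%. The difference of the log2 changes, intramuscular minus subcutaneous, was positive for NDUFA4L2 (2.51), ATP5S (0.58), NDUFA4 (0.43), NDUFV3 (0.36), NDUFA7 (0.31), ATP5J (0.29), SDHC (0.28), ATP5D (0.27) and SDHA (0.23). It was negative for ATP5G1 (-0.94), NDUFS8 (-0.77), NDUFV1 (-0.47), ATP5B (-0.41), NDUFA5 (-0.35), ATP5SL (-0.33), ATP5L (-0.27), NDUFA12 (-0.27), ATP5G3 (-0.26), SDHB (-0.22), NDUFB7 (-0.20) and ATP5G2 (-0.17).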

How the results depend on the processing

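The number of members called stayed within 1.5 times under the other filters, pseudocount, scalings, variance model, library covariate, joint fit and most abundant transcript. With the share of mapped reads as a covariate it fell from 31 to 8 for IMA against IMPA, from 52 to 5 for IMPA against SPA, from 51 to 27 for IMA against SA and from 35 to 10 for the interaction, and from 25 to 19 for SA against SPA. The covariate separates the 2 groups of every comparison, and the cause was not tested. Under it these differences changed sign, none with an adjusted p under 0.05 in limma. For IMA against IMPA they became 0.20 (ATP5B), 0.0225 (ATP5G1), 0.0242 (ATP5G2), 0.11 (ATP5SL), 0.0170 (NDUFA10), -0.39 (NDUFA4L2), 0.14 (NDUFA9), 0.16 (NDUFB2), 0.0822 (NDUFB9) and 0.18 (NDUFS3), and for SA against SPA -0.25 (ATP5G1). For IMPA against SPA they became -0.0217 (ATP5F1), 0.21 (NDUFA4L2), -0.0420 (NDUFA8), -0.0049 (NDUFA9), -0.0464 (NDUFB6), -0.0801 (NDUFB8), -0.0734 (NDUFS3), -0.24 (SDHA) and -0.15 (SDHD), and for IMA against SA -0.0243 (NDUFA10). For the interaction they became 0.12 (ATP5G3), 0.0876 (NDUFA10), 0.0084 (NDUFA12), 0.13 (NDUFA5), 0.14 (NDUFA9), 0.0645 (NDUFB6) and 0.0050 (NDUFS3). With the most abundant transcript in place of the sum, the interaction of ATP5J became -0.28 (adjusted p = 0.909). Leaving out each library in turn gave 29 to 34 members called for IMA against IMPA, 23 to 29 for SA against SPA, 50 to 52 for IMPA against SPA, 44 to 51 for IMA against SA and 32 to 37 for the interaction, and no call changed sign. It took the call of the NDUFA4L2 to NDUFA4 ratio between IMA and IMPA in 8 of 10 cases (adjusted p up to 0.0544), where the smaller groups also raise the smallest p. The replicate block changed the counts to 34, 25, 52, 48 and 35, in the order IMA against IMPA, SA against SPA, IMPA against SPA, IMA against SA and interaction. In 5 pairs an exact test cannot go below p = 0.0625, so the 7 paralogue ratio calls could not pass with it (adjusted p = 0.107 each). Whether the shared replicate numbers pair the samples is unknown. Correlations of same-numbered libraries were weak (-0.24 to 0.12) and cannot decide it, so the block result shows nothing about pairing. FPKM without counts limits what can be said of the depth behind low members such as ATP5SL and NDUFA4L2.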
